A study of Mus musculus with 12 samples.

Results

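The genes described here are the chemokines and the chemokine receptors of mouse thymic T-cell lymphomas. They were chosen by name: every row of the count table whose Ensembl identifier carries a symbol beginning with Ccl, Cxcl, Ccr, Cxcr, Xcl, Xcr or Ackr and a digit, or Cx3cl1 or Cx3cr1, with at least 10 counts in at least 2 tumours. Cxcr6 and Ccl25 were left out by the rule. Of 57 rows considered, 52 met the minimum, out of 37991 genes in the table. They were 17 receptors, 4 atypical receptors, 17 CC ligands (1 of them the pseudogene Ccl19-ps1) and 14 CXC, C and CX3C ligands. Of the 5 rows that did not meet it, Ccl26 and Ccl28 had no count, and Ccl1 and Ccr1l1 had at most 9 and 7 counts in any tumour. Cxcl3, with up to 55 counts, reached 10 in fewer than 2 tumours.

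RNA-seq was measured in 12 thymic lymphomas, 1 library each, from C57BL/6 mice of the genotype p53neo/R172H;R26CreER/GNZ. All animals thus carried the R172H mutant Trp53 allele, a p53neo allele that Cre can restore, and a tamoxifen-activated Cre at the R26 locus. All received tamoxifen weekly once a tumour had been found, which lets Cre restore wild-type p53, and no untreated group was analysed here. By magnetic resonance imaging, 8 tumours were labelled responder and 4 non-responder, and the comparison asks which transcripts set resistant tumours apart from sensitive ones. Animal age, tumour size, dates and batches are not given in the labels. Tumours were numbered within their group in the order in which they are listed, and the numbers pair nothing.

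Chemokines are small secreted proteins that guide cells along gradients through G protein-coupled receptors. In the thymus they lead progenitors in, hold immature thymocytes in the cortex and draw selected cells into the medulla, and in mature T cells and myeloid cells they direct entry into lymphoid organs and inflamed tissue. Atypical receptors bind chemokines without G protein signalling and clear or redistribute them. Most ligands are made by stromal, endothelial, dendritic or myeloid cells, while most receptors are carried by leukocytes, so a tumour piece reports on both the lymphoma cells and what surrounds them.

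Levels are CPM, counts relative to the scaled total of a library, and the totals lay between 20796860 and 30265753 counts before scaling. Differences are log2 fold changes, non-responder minus responder, from edgeR's quasi-likelihood test over 18612 genes, and SE is their standard error. Genes of T cells (Cd3e, Lck, Thy1 and others, 9 of 9 in the table) were present in every tumour, with a summed level of 782 to 2574 CPM in responders and 1980 to 2524 CPM in non-responders. Genes of cortical thymocytes, which carry both CD4 and CD8, summed to 3340 to 4420 CPM in responders 1 to 3, to 393 to 792 CPM in responders 4 to 8 and to 1482 to 6246 CPM in non-responders. Mature T-cell genes summed to 526 and 444 CPM in responders 2 and 3, to 1341 to 2562 CPM in the other responders and to 421 to 669 CPM in non-responders. Thymic epithelial genes, which were present in every tumour at a low level, summed to 32.2 to 243 CPM against 13.5 to 162 CPM (9 of 9 lower, here and below by the sign of the log2 difference alone). Dendritic-cell genes summed to 200.4 to 2897 CPM in responders and 156 to 405 CPM in non-responders, with 10 of 10 lower. Most of this sum came from Cd74, H2-Aa and H2-Ab1 in every tumour. B-cell genes summed to 17.2 to 218 against 7.98 to 38.4 CPM (6 of 6 lower), neutrophil genes to 26.6 to 694 against 9.41 to 27.0 CPM (8 of 8 lower), and endothelial genes to 164 to 627 against 110.2 to 165 CPM (8 of 8 lower). Macrophage genes (474 to 1763 against 531 to 1460 CPM, 8 of 10 lower) and fibroblast genes (297 to 1590 against 444 to 1333 CPM, 4 of 7 lower) had wider overlap. No listed marker was at 0 in all 12 tumours. Cytotoxic-cell genes summed to 26.4 to 441 against 96.4 to 166 CPM (5 of 7 tested lower), and erythroid genes to 38.7 to 1033 against 7.09 to 113 CPM (5 of 5 lower). Adipocyte genes summed to 43.0 to 1116 against 29.2 to 52.6 CPM and platelet genes to 10.9 to 50.8 against 7.82 to 13.6 CPM (4 of 4 tested lower in each). The part of these markers in the differences below was not tested, and in bulk tumour RNA fewer cells of a type and less RNA per cell cannot be told apart.

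**Figure D1:**
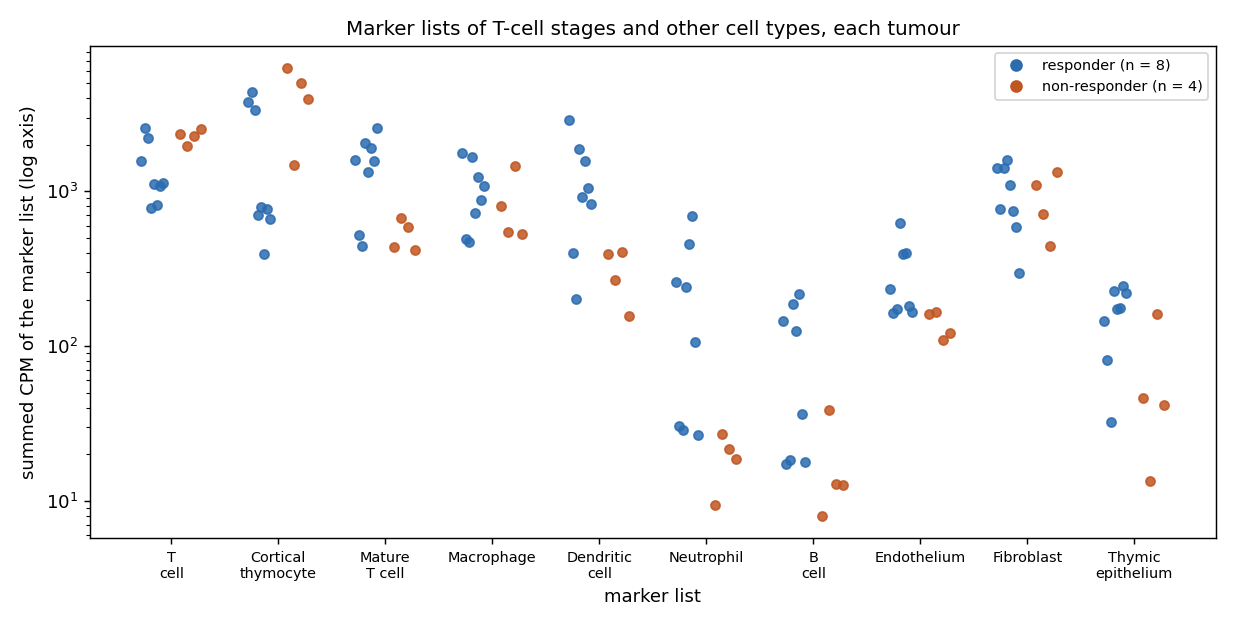
Summed CPM (log axis) of the marker lists of T cells, T-cell stages and other cell types; each point is 1 tumour, blue for the 8 responders and orange for the 4 non-responders. T-cell genes lay between 782 and 2574 CPM in every tumour, whereas dendritic-cell genes, mostly Cd74, H2-Aa and H2-Ab1, reached 2897 CPM in responders and at most 405 CPM in non-responders.

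On group means nearly the whole chemokine system stood lower in non-responders, with Cxcr4 as the main exception, but no gene passed the adjusted threshold. Of the 52 genes, 50 had enough counts to be tested, and Cxcr1 and Cxcl15 did not. edgeR called 0 of the 50 at an adjusted p under 0.05, where it called 0.00% of all genes tested; the lowest adjusted p was 0.117 among these 50 and 0.0786 over all genes. Without adjustment, 26 of the 50 had a p under 0.05 and a lower level in non-responders, against 16.1% of all genes, and 1 of the 50, Cxcr4, a higher level, against 7.73% of all genes (27 of 50 in either direction, against 23.8%). The log2 difference was below 0 for 46 and above 0 for 4 (Cxcr4, Ccl3, Cxcl14 and Ccl27a), with a median of -1.79, while over all genes tested 51.5% were lower and the median was -0.02. Part of this was set by the filter on low counts: 4 of the 50 (Ccl19, Ccl19-ps1, Ccl24 and Xcl1) had fewer than 10 counts in every non-responder and so could enter the test only through responders. The filter asks for about 10 counts in as many tumours as the smaller group holds. In 15 more of the 50, only 1 to 3 non-responders reached 10 counts, so these too needed responders to pass it. In 31 of the 50 every non-responder had at least 10 counts, and 27 of these 31 had a log2 difference below 0.

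Other tools, run after the same filter, made calls in the same direction. DESeq2 called 22 of the 50, all lower in non-responders, against 10.4% of all genes called lower and 2.80% called higher. By kind these were 9 receptors, 4 atypical receptors, 7 CC ligands and 2 of the other ligands. limma-voom with quality weights called 8 of the 50, all lower, against 4.71% of all genes called lower and 4.55% called higher. Its weights were lowest for responders 2 and 3, at 0.461 each, and lay between 0.719 and 1.648 for the other tumours. These 2 responders thus counted least in that fit, and the part of the weights in its calls was not tested. The same 8 genes were also called by DESeq2: Ccr1, Ccr2, Ackr1, Ackr4, Ccl11, Ccl19, Ccl19-ps1 and Cxcl13. Ccl19 and Ccl19-ps1 had fewer than 10 counts in every non-responder, and Ackr1 reached 10 in 3 of 4. These genes thus needed responders to pass the filter, as did others among the 22, and the counts are given as a description.

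**Figure D2:**
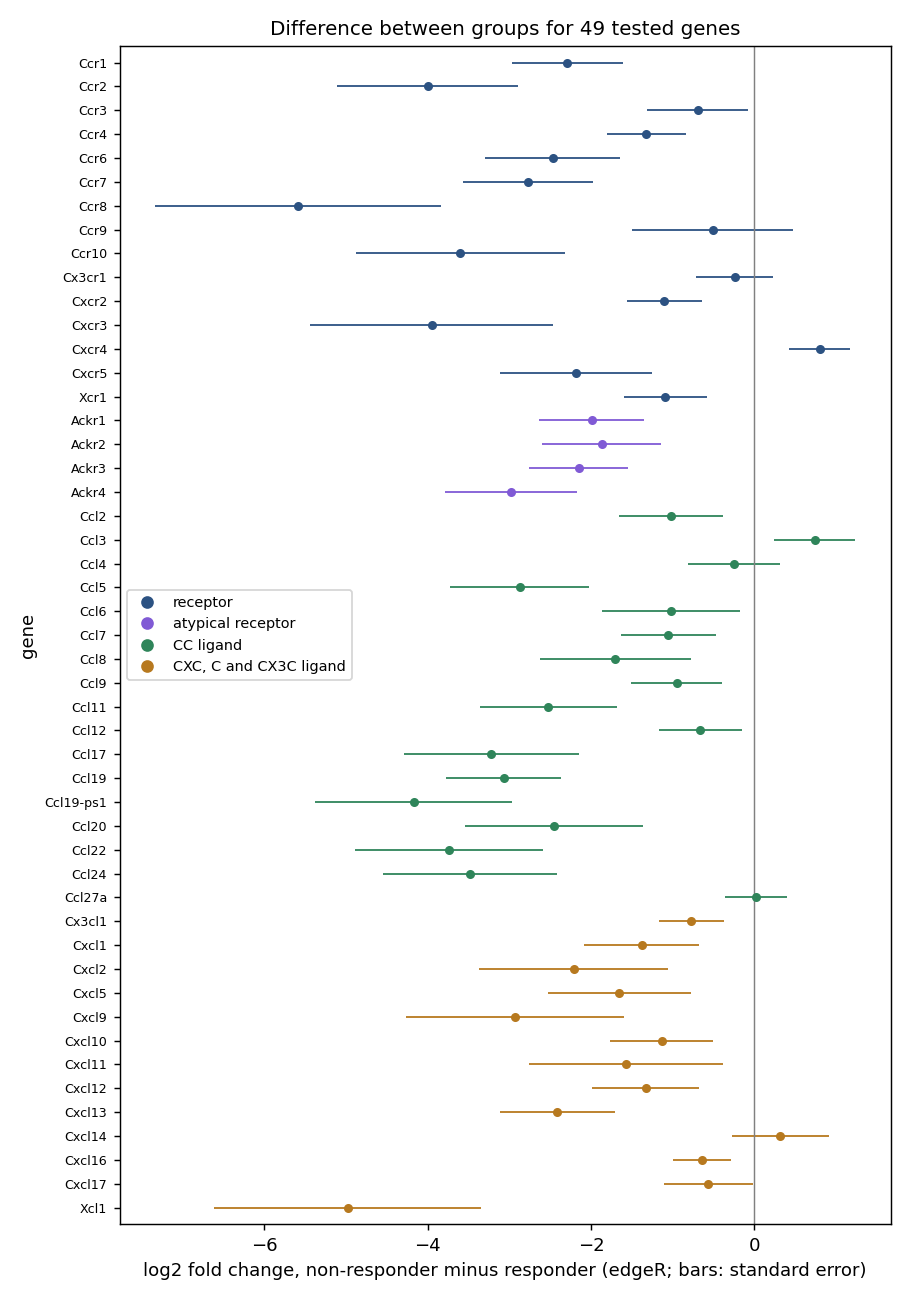
Log2 fold change (non-responder minus responder) of 49 tested genes from edgeR, with bars for the standard error and colours for the kind of gene. Points lie to the left of 0 for 45 genes, and Cxcr4, Ccl3, Cxcl14 and Ccl27a lie to the right.

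The responders were not uniform. Responders 2 and 3 were the 2 lowest responders for 29 of the 52 genes (55.8%), against 19.3% of all genes tested, and neither was ever the highest. Responder 1 was the highest responder for 16 of the 52 (8.68% of all genes), responder 4 for 13 (21.7%), responder 7 for 10 (9.28%) and responder 8 for 8 (10.3%). Responder 1 exceeded every non-responder for 42 of the 52 genes (26.3% of all genes tested), responder 4 for 42 (34.3%), responder 6 for 40 (33.2%), responder 7 for 33 (28.7%), responder 8 for 32 (28.4%) and responder 5 for 28 (29.7%). Responders 2 and 3 did so for 9 and 12, near the 17.9% and 18.5% of all genes. Responders 2 and 3 were also the lowest responders for mature T-cell genes (526 and 444 CPM) and for macrophage genes (496 and 474 CPM).

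**Figure D3:**
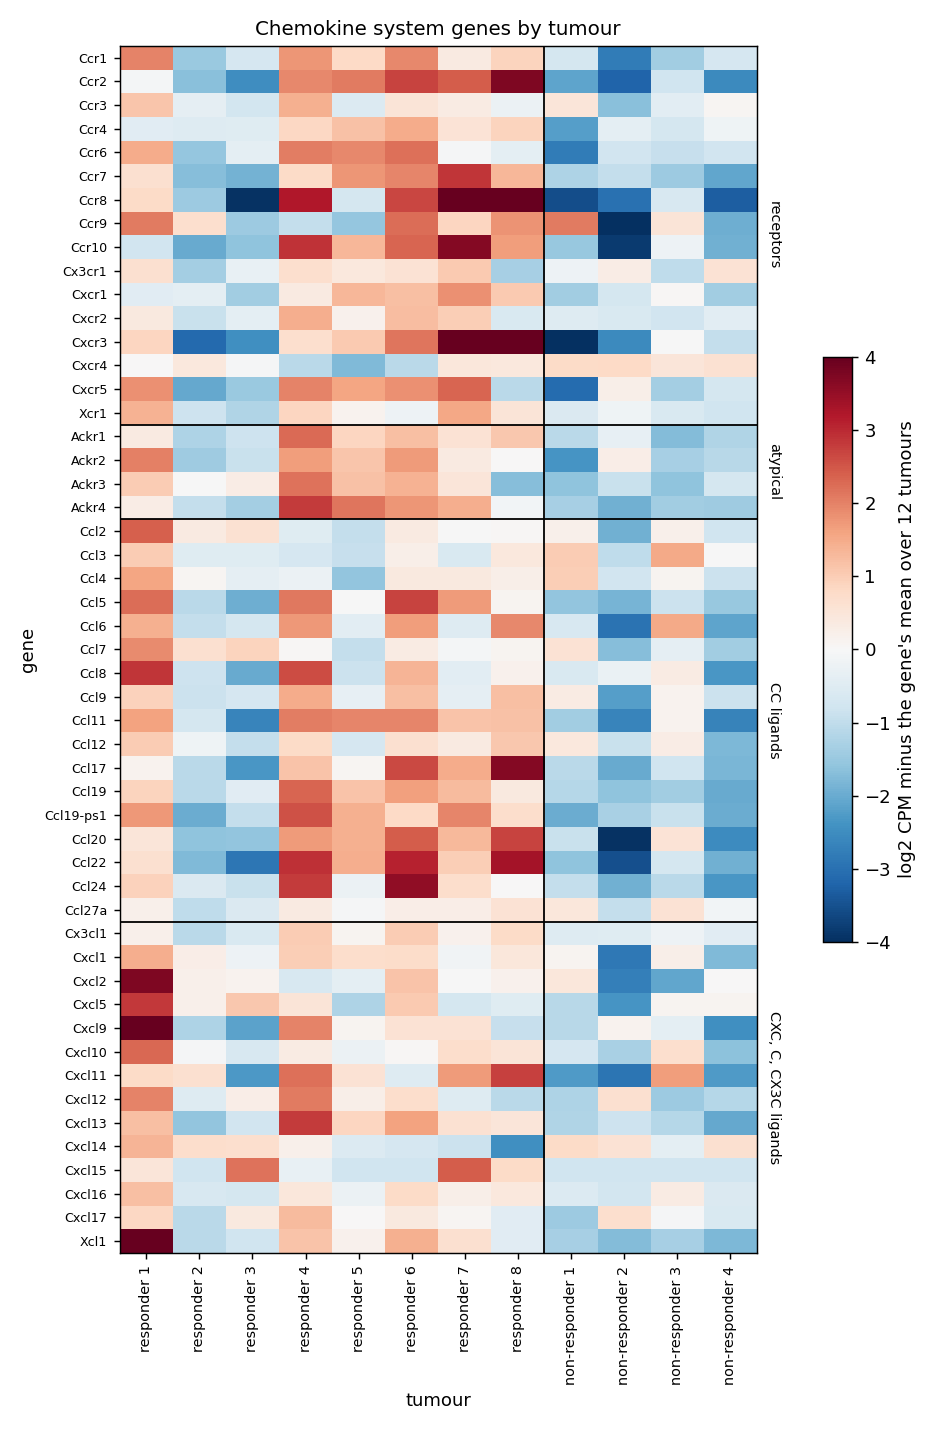
Heat map of 51 of the 52 genes (rows, grouped by kind) in the 12 tumours (columns), coloured by log2 CPM minus the gene's mean over the 12 tumours and capped at 4 either way. Responders 2 and 3 share the blue of the non-responders for most rows, while responder 1 is the deepest red for Cxcl9, Cxcl2 and Xcl1 and responders 7 and 8 for Cxcr3 and Ccr8.

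Cxcr4, the receptor for Cxcl12 that retains immature thymocytes in the cortex, was the one receptor whose level was higher in every non-responder than in any responder. Cxcr4 (ENSMUSG00000045382) lies on chromosome 1 from 128588199 to 128592293 (GRCm38). Its level ran from 55.3 CPM in responder 5 through a median of 188 to 256 CPM in responder 7, and was 318, 329.7, 262 and 286 CPM in non-responders 1 to 4. The groups did not overlap, although the gap between 256 and 262 CPM was small, and responders 2, 7 and 8 (253 to 256 CPM) lay just below the non-responders, while responders 4, 5 and 6 (89.2, 55.3 and 89.4 CPM) lay far below. The SD was 83.1 CPM over the 8 responders and 30.9 CPM over the 4 non-responders, and the log2 difference was 0.80 (SE 0.37, edgeR adjusted p = 0.209). It lay between 0.67 and 0.90 with any 1 tumour left out, but the unadjusted p, 0.0494 with all tumours, was then above 0.05 in 8 of 12 cases, at 0.0934 at most: without responder 1, 3, 4 or 6 or any of the 4 non-responders. Without overlap stood 4 of the 50: Cxcr4 above, against 0.951% of all genes tested, and Ccl19, Ccl24 and Xcl1 below, where the share of all genes was 1.18%. These 3 had fewer than 10 counts in every non-responder and were tested only because of their level in responders, so their count is given as a description. Cxcr4 took 63.6% to 84.3% of the summed CPM of the 17 receptor genes in non-responders, 71.1% and 72.2% in responders 2 and 3, and 10.5% to 32.0% in the other responders. By the sign of the log2 difference alone 8 of 9 T-cell marker genes were higher in non-responders, from 0.00 for Cd3d to 1.01 for Thy1, and Thy1 was the one with an unadjusted p under 0.05. Per 100 CPM of that marker list, a scale chosen after the values were seen, Cxcr4 stood at 4.99 to 23.6 in responders and 11.3 to 16.7 in non-responders, so that on this scale the groups overlapped.

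Ccr9, the receptor for Ccl25 carried by thymocytes and by T cells that home to the gut, varied widely within both groups. Ccr9 (ENSMUSG00000029530) lies on chromosome 9 from 123678439 to 123784330 (GRCm38), and 4 other annotated genes overlap it on the opposite strand. In responders its level ran from 10.2 CPM in responder 5 through a median of 51.4 to 143 CPM in responder 6, and in non-responders it was 129, 1.42, 42.8 and 7.81 CPM. Both groups thus held tumours with high and with low Ccr9, and 7 of 8 responders lay within the range of the non-responders. The log2 difference was -0.51 (SE 0.99, edgeR adjusted p = 0.785), and it was -1.89 without non-responder 1, in which Ccr9 was at 129 CPM. Among the 3 tumours above 100 CPM in the responders, responder 1 had high cortical-thymocyte genes (3777 CPM summed) and responders 6 and 8 had low ones (393 and 659 CPM).

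Ccr7, the receptor for Ccl19 and Ccl21 that brings selected thymocytes into the medulla and naive T cells into lymph nodes, was low in every non-responder and in 2 of the responders. Ccr7 (ENSMUSG00000037944) lies on chromosome 11 from 99144196 to 99155077 (GRCm38). Its level ran from 4.26 CPM in responder 3 through a median of 33.9 to 116 CPM in responder 7, and was 6.79, 8.19, 5.80 and 3.72 CPM in non-responders. Responders 2 and 3, at 4.85 and 4.26 CPM, lay among the non-responders, and the other 6 lay at 25.3 CPM or more, above all of them. The log2 difference was -2.77 (SE 0.80, edgeR adjusted p = 0.117, DESeq2 adjusted p = 0.00273, limma-voom adjusted p = 0.0567). Per 100 CPM of the T-cell marker list, Ccr7 was at 0.188 and 0.192 in responders 2 and 3, at 1.62 to 10.7 in the other 6 and at 0.147 to 0.414 in non-responders.

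**Figure D4:**
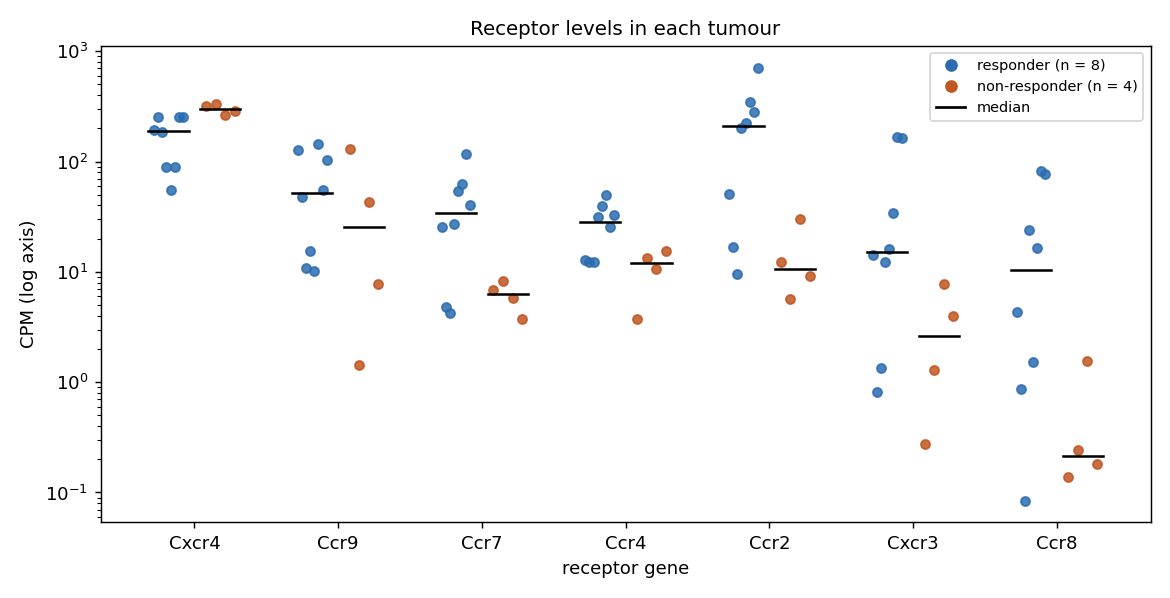
CPM (log axis) of 7 receptor genes in each tumour; blue points are the 8 responders, orange points the 4 non-responders and black bars the group medians. Cxcr4 lies between 262 and 329.7 CPM in non-responders and at or below 256 CPM in responders, Ccr9 spreads over both groups, and Ccr8 and Cxcr3 each have 2 responders far above the rest.

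Among receptors of effector, regulatory and myeloid cells, Ccr2 had the lowest p. Ccr2, the receptor for Ccl2, Ccl7 and Ccl12 on monocytes and on activated T cells, lies on chromosome 9 from 124101950 to 124113557. It ran from 9.49 CPM in responder 3 through a median of 212 to 711 CPM in responder 8, and was 12.2, 5.69, 30.3 and 9.08 CPM in non-responders. Responders 2 and 3 lay within the non-responders' range and the other 6 above it. The log2 difference was -4.0 (SE 1.11, edgeR adjusted p = 0.117, DESeq2 adjusted p = 0.000482, limma-voom adjusted p = 0.0469). Macrophage genes summed to 474 to 1763 CPM in responders and 531 to 1460 CPM in non-responders, and their part in the Ccr2 level was not tested.

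Responders 7 and 8 had by far the highest Cxcr3 and Ccr8. Cxcr3, the receptor for the interferon-induced ligands Cxcl9, Cxcl10 and Cxcl11 on effector T cells and NK cells, was at 168 and 164 CPM in responders 7 and 8, at 0.822 to 34.2 CPM in the other responders and at 0.275, 1.28, 7.73 and 3.99 CPM in the 4 non-responders. Its log2 difference was -3.95 (SE 1.49, edgeR adjusted p = 0.143). Ccr8, a receptor of type 2 helper and regulatory T cells, was at 82.7 and 76.8 CPM in the same tumours, at 0.0844 to 23.9 CPM in the other responders and at 0.138, 0.245, 1.56 and 0.182 CPM in the 4 non-responders (log2 difference -5.59, SE 1.75, edgeR adjusted p = 0.118). It had the most negative log2 difference of the 50, and 1 of 4 non-responders reached 10 counts. That tumour, non-responder 3, was the highest of its group for Ccr2, Ccr8, Ccr10 and Cxcr3, and without it the differences were -4.64, -7.03, -4.55 and -4.74. Ccr1, an inflammatory receptor of myeloid cells, ran from 2.96 through 15.1 to 33.2 CPM and was 5.09, 1.13, 3.13 and 5.27 CPM (-2.29, SE 0.68).

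The other receptors were less abundant or less different. Ccr4, the receptor for Ccl17 and Ccl22, was at 12.2 to 12.9 CPM in responders 1 to 3, at 25.4 to 49.3 CPM in responders 4 to 8 and at 3.76, 13.3, 10.7 and 15.5 CPM in the 4 non-responders (log2 difference -1.32, SE 0.48, edgeR adjusted p = 0.135). Its responders 1 to 3 lay within the non-responders' range and its responders 4 to 8 above it, the same division as for cortical-thymocyte genes. Ccr6, the receptor for Ccl20, had a log2 difference of -2.47 (SE 0.83), Ccr10, the receptor for Ccl27 and Ccl28 in skin and mucosa, of -3.60 (SE 1.28), and Cxcr5, the follicular homing receptor of B cells and helper T cells, of -2.18 (SE 0.93, and -2.81 without non-responder 2). Levels in non-responders were low, at 0.0918 to 0.638 CPM for Ccr6 and 0 to 0.92 CPM for Ccr10, where 1 of 4 reached 10 counts. Responders had 0.206 to 14.6 CPM of Ccr10. Cxcr2, the neutrophil receptor for Cxcl1, Cxcl2 and Cxcl5, was at 3.45 to 17.8 CPM against 3.77 to 4.77 CPM (-1.10, SE 0.46). Xcr1, a marker of cross-presenting dendritic cells, was at 2.02 to 14.1 against 2.72 to 4.22 CPM (-1.09, SE 0.51), beside the lower dendritic-cell genes given above. Cx3cr1, the fractalkine receptor, overlapped widely (3.13 to 16.9 against 4.00 to 12.3 CPM), and Ccr3, the eosinophil receptor, was at or below 1.04 CPM in every tumour. Cxcr1 was at or below 0.67 CPM and was not tested.

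All 4 atypical receptors were lower in non-responders by their log2 difference, with unadjusted p under 0.05 for each (16.1% of all genes tested) and DESeq2 calls for each (10.4%), while limma-voom called Ackr1 and Ackr4 (4.71%) but not Ackr2 or Ackr3. Ackr1 reached 10 counts in 3 of 4 non-responders and needed responders to pass the filter. Ackr4, which scavenges Ccl19, Ccl21 and Ccl25, ran from 0.759 CPM in responder 3 through a median of 4.19 to 14.7 CPM in responder 4, and was 0.78, 0.49, 0.736 and 0.726 CPM in the 4 non-responders (log2 difference -2.98, SE 0.81, edgeR adjusted p = 0.117). Responder 3 lay within the non-responders' range and the other 7 above it. Ackr3, which scavenges Cxcl12, ran from 0.952 CPM in responder 8 through 5.63 to 15.0 CPM in responder 4, and was 1.01, 1.72, 1.01 and 1.95 CPM (-2.15, SE 0.61). Here responder 8 alone lay below the non-responders and the other 7 lay above them. Ackr1, found on venular endothelium and red cells, had a log2 difference of -1.99 (SE 0.64), and Ackr2, a scavenger of inflammatory CC ligands on lymphatic endothelium, of -1.87 (SE 0.73, and -2.57 without non-responder 2). Responder 4 was the highest tumour for Ackr1, Ackr3 and Ackr4 and also had the highest summed levels of endothelial (627 CPM), fibroblast (1590 CPM), adipocyte (1116 CPM) and platelet genes (50.8 CPM).

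Of the ligands that organise lymphoid tissue, Ccl19 and Cxcl13 had the lowest p. Ccl19, a Ccr7 ligand of medullary epithelium and lymphoid stroma, lies on chromosome 4 from 42754525 to 42756577 and had the lowest p of the 50 genes. It ran from 0.247 CPM in responder 2 through a median of 1.32 to 3.42 CPM in responder 4, and was 0.229, 0.147, 0.184 and 0.0908 CPM in non-responders. The groups did not overlap, but every non-responder had 5 counts or fewer (log2 difference -3.07, SE 0.70, edgeR adjusted p = 0.117, DESeq2 adjusted p = 0.00111, limma-voom adjusted p = 0.0366). Ccl19-ps1 is a pseudogene copy of it, so reads could have been split between them, and its own log2 difference was -4.17 (SE 1.21, and -5.10 without non-responder 3). Cxcl13, the Cxcr5 ligand of B-cell follicles, ran from 6.54 CPM in responder 2 through 33.1 to 136 CPM in responder 4 and was 8.40, 11.1, 8.93 and 4.68 CPM in the 4 non-responders (-2.41, SE 0.70). Responder 2 lay within the non-responders, and B-cell genes summed to 17.2 CPM there and to 188 CPM in responder 4. In responder 8 they summed to 17.7 CPM with Cxcl13 at 27.5 CPM, and in responder 6 to 218 CPM with Cxcl13 at 59.7 CPM. A link between Cxcl13 and B-cell genes was not tested.

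Cxcl12, the Cxcr4 ligand of thymic cortex and stroma, ran from 9.05 CPM in responder 8 through 22.8 to 81.5 CPM in responder 4 and was 8.21, 30, 6.99 and 8.76 CPM in the 4 non-responders (log2 difference -1.33, SE 0.66, edgeR adjusted p = 0.241). Non-responder 2 was apart from the other 3, and without it the log2 difference was -2.07. The Ccr4 ligands Ccl22 and Ccl17 of dendritic cells had larger log2 differences. Ccl22 ran from 0.422 through 8.67 to 37.6 CPM and was 1.15, 0.245, 2.21 and 0.908 CPM in the 4 non-responders (-3.74, SE 1.15), and Ccl17 ran from 0.295 through 3.05 to 24.2 CPM and was 0.826, 0.392, 1.01 and 0.454 CPM (-3.22, SE 1.07). Both were highest in responder 8, and without that tumour the log2 difference of Ccl17 was -2.47. Ccl20, the Ccr6 ligand, ran from 0.329 to 8.05 CPM in responders and from 0 to 1.75 CPM in the 4 non-responders (-2.45, SE 1.09, and -3.74 without non-responder 3).

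Of all 17 CC ligand genes, 8 had an unadjusted p under 0.05, each lower, against 16.1% of all genes tested: Ccl17, Ccl19, Ccl19-ps1, Ccl20 and Ccl22, described above, and Ccl5, Ccl11 and Ccl24. Of these 8 only Ccl5 and Ccl11 had at least 10 counts in every non-responder. The others needed responders to pass the filter, so the count is given as a description. Ccl5, secreted by activated and cytotoxic T cells, ran from 1.48 CPM in responder 3 through 12.9 to 39.4 CPM in responder 6 and was 1.93, 1.57, 3.27 and 2.04 CPM in the 4 non-responders (log2 difference -2.87, SE 0.85, edgeR adjusted p = 0.117). The eotaxin genes Ccl11 (-2.52, SE 0.84, and -3.47 without non-responder 3) and Ccl24 (-3.48, SE 1.07, and -2.75 without responder 6), which attract eosinophils, were lower on group means, with 0.908 to 6.81 CPM and 0.0908 to 0.367 CPM in non-responders. The ligands of monocytes and macrophages overlapped more between groups. Ccl6, a macrophage ligand of rodents, was at 30.9 to 227 CPM in responders and 38.5, 7.60, 169 and 13.7 CPM in the 4 non-responders, and its log2 difference moved from -1.02 to -2.52 without non-responder 3. That tumour had the highest macrophage marker sum of its group, 1460 CPM. Ccl9 (-0.95, SE 0.56), Ccl8 (-1.70, SE 0.92), Ccl7 (-1.05, SE 0.58), Ccl12 (-0.66, SE 0.51) and Ccl2 (-1.02, SE 0.64) had edgeR adjusted p between 0.274 and 0.445. Without responder 1 the difference of Ccl2 was -0.43, and without non-responder 1 that of Ccl7 was -1.67. Ccl3, the macrophage inflammatory protein gene, was at 0.737 to 3.05 CPM against 3.03, 0.687, 4.33 and 1.45 CPM (0.74, SE 0.50), and Ccl4 beside it was at 0.246 to 2.83 against 0.454 to 1.84 CPM (-0.25, SE 0.56). Ccl27a, a skin ligand whose row overlaps Il11ra1 on the opposite strand, was at 0.699 to 2.26 against 0.736 to 2.25 CPM (0.02, SE 0.38).

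Responder 1 was the highest tumour for Cxcl9, Cxcl10, Cxcl2, Cxcl5, Cxcl1 and Xcl1, by a wide margin for all but Cxcl1, where the next tumour was at 1.07 CPM. Cxcl9, a Cxcr3 ligand induced by interferon gamma, was at 130.3 CPM in responder 1, at 0.97 to 18.2 CPM in the other responders and at 2.06, 5.0, 3.45 and 0.772 CPM in the 4 non-responders, and its log2 difference was -2.93 with responder 1 and -1.08 without it. Cxcl10 was at 14.3 CPM there and at 1.81 to 4.69 CPM in the other responders (-1.13, SE 0.63, and -1.85 without non-responder 3). Cxcl2, which attracts neutrophils through Cxcr2, was at 7.05 CPM in responder 1 and at or below 1.09 CPM in every other tumour (-2.21, with -0.85 without responder 1 and -2.95 without non-responder 1). Cxcl5 was at 4.71 CPM there (-1.65, and -0.90 without it), and Cxcl1 ran from 0.422 to 1.51 CPM in responders and 0 to 0.598 CPM in the 4 non-responders (-1.38, SE 0.70). Xcl1, the Xcr1 ligand of activated cytotoxic cells, was at 15.3 CPM in responder 1 and 0.123 to 1.09 CPM in the other responders, and its 4 non-responders had at most 2 counts each (-4.98, and -2.76 without responder 1). Responder 1 also had the highest summed levels of dendritic-cell (2897 CPM), macrophage (1763 CPM) and cytotoxic-cell genes (441 CPM). Most of its dendritic-cell sum came from Cd74, H2-Aa and H2-Ab1 (1246, 983 and 560.4 CPM). Of the other genes of that list, Itgax and Clec9a were also highest in responder 1. Flt3, Zbtb46 and Batf3 were highest in responder 6, and Cd209a and Siglech in responder 4.

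The remaining CXC and CX3C ligands had adjusted p of 0.256 or more in edgeR. Cxcl16, a membrane-bound ligand of dendritic cells and macrophages, was at 15.9 to 59.4 CPM against 15.4 to 32.5 CPM (log2 difference -0.64, SE 0.36). Cx3cl1, or fractalkine, was at 2.30 to 10.2 against 3.44 to 4.33 CPM (-0.77, SE 0.40). Cxcl14 was at 0.159 to 3.24 CPM against 2.16, 1.86, 0.92 and 1.95 CPM (0.32, SE 0.59), with 4 responders below every non-responder. Cxcl11, the other interferon-induced Cxcr3 ligand, annotated as a polymorphic pseudogene, was highest in responders 8, 4 and 7 (3.93, 2.73 and 1.90 CPM) and at 0.942 CPM in responder 1. It was at 1.84 CPM in non-responder 3 and below 0.05 CPM in the other 3 (-1.57, and -5.31 without that tumour). Cxcl17 was at or below 1.37 CPM in every tumour, and Cxcl15 had no count in any non-responder and was not tested.

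RefSeq promoter windows, from 250 bases before to 50 bases after a start (GRCm38.p6), were available for 37 of the 52 genes. They were searched on both strands for GGGA and TTCC with any 2 bases between them, of the kind bound by NF-kB, and for GAAA and GAAA with any 2 bases between them, of the kind bound by interferon regulatory factors; matches of 1 motif may overlap each other. The first was found in windows of 4 of the 37 genes (Cxcl1, Cxcl2, Cxcl10 and Ccr3), or 4 of 40 windows (10%), against 1.47% of 32851 windows of the same length. The second was found for 3 genes (Ccl19, Cxcl10 and Cxcl14), or 3 of 40 windows (7.5%), against 3.44%. A match describes the letters only. Windows of 4 ligands are shown 5′ to 3′ on the gene's strand. Cxcl1, Cxcl2 and Cxcl10 held matches of the first kind and were highest in responder 1, and Ccl19 had the lowest p. The windows of Cxcl14 and Ccr3, which also held a match, are not shown. Capitals mark the matches, and the windows lie at chr5:90890995-90891294 (plus strand) for Cxcl1, chr5:90903649-90903948 (plus) for Cxcl2, chr5:92348840-92349139 (minus) for Cxcl10 and chr4:42756316-42756615 (minus) for Ccl19.
Cxcl1: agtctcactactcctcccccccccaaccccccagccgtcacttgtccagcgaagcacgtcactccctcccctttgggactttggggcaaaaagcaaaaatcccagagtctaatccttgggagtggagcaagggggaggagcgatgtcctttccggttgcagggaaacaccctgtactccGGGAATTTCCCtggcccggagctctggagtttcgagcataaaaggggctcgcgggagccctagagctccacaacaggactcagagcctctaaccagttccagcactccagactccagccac
Cxcl2: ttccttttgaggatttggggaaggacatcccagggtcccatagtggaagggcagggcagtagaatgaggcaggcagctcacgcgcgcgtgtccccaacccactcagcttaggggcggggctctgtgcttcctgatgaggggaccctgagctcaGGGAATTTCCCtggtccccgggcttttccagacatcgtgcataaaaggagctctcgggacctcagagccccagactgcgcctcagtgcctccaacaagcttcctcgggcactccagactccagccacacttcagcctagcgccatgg
Cxcl10: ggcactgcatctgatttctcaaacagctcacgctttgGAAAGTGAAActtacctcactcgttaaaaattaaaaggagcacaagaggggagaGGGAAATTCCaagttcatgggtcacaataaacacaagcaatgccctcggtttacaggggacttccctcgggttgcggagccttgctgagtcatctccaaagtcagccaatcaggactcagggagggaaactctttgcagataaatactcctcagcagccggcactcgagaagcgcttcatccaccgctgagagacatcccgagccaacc
Ccl19: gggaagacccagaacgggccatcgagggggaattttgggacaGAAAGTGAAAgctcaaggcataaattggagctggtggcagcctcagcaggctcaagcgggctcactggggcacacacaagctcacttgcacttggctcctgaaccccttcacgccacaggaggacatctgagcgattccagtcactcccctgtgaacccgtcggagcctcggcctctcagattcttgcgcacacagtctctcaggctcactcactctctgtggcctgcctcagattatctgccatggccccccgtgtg
Cxcl1 and Cxcl2 each hold GGGAATTTCC, at position -71 from the start in Cxcl1 and -97 in Cxcl2, overlapped by a match on the other strand, and Cxcl10 holds both kinds, GAAAGTGAAA at -213 and GGGAAATTCC at -159. The same letters GAAAGTGAAA stand at -208 in Ccl19. Of the 6 genes with a match, Cxcl1, Cxcl2, Cxcl10 and Cxcl14 were highest in responder 1, and Ccl19 and Ccr3 in responder 4. Responder 1 was the highest responder for 16 of all 52 genes, and the windows of Cxcl9 and Xcl1, also highest there, held no match. A link between matches and levels was not tested.

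Set side by side within a tumour, ligands and receptors gave differing pictures. In 3 of 4 non-responders Cxcr4 at 262 to 318 CPM stood beside Cxcl12 at 6.99 to 8.76 CPM, and responder 8 was close to them (255 and 9.05 CPM), but non-responder 2 had 329.7 CPM of Cxcr4 and 30 CPM of Cxcl12. Ccr7 and Ccl19 were both low in the non-responders and in responders 2 and 3, and both higher in the other 6 responders. For the Cxcr3 pair the highest tumours differed: Cxcl9 was highest in responder 1, at 130.3 CPM, where Cxcr3 was at 14.2 CPM, and Cxcr3 was highest in responder 7, where Cxcl9 was at 6.82 CPM. Ccl8, a Ccr8 ligand in mice, was highest in responder 1, at 138 CPM with Ccr8 at 4.33 CPM, whereas responder 7 had 14.4 CPM of Ccl8 and 82.7 CPM of Ccr8. As the tumours fall into separate clusters for these genes, no correlation is given.

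**Figure D5:**
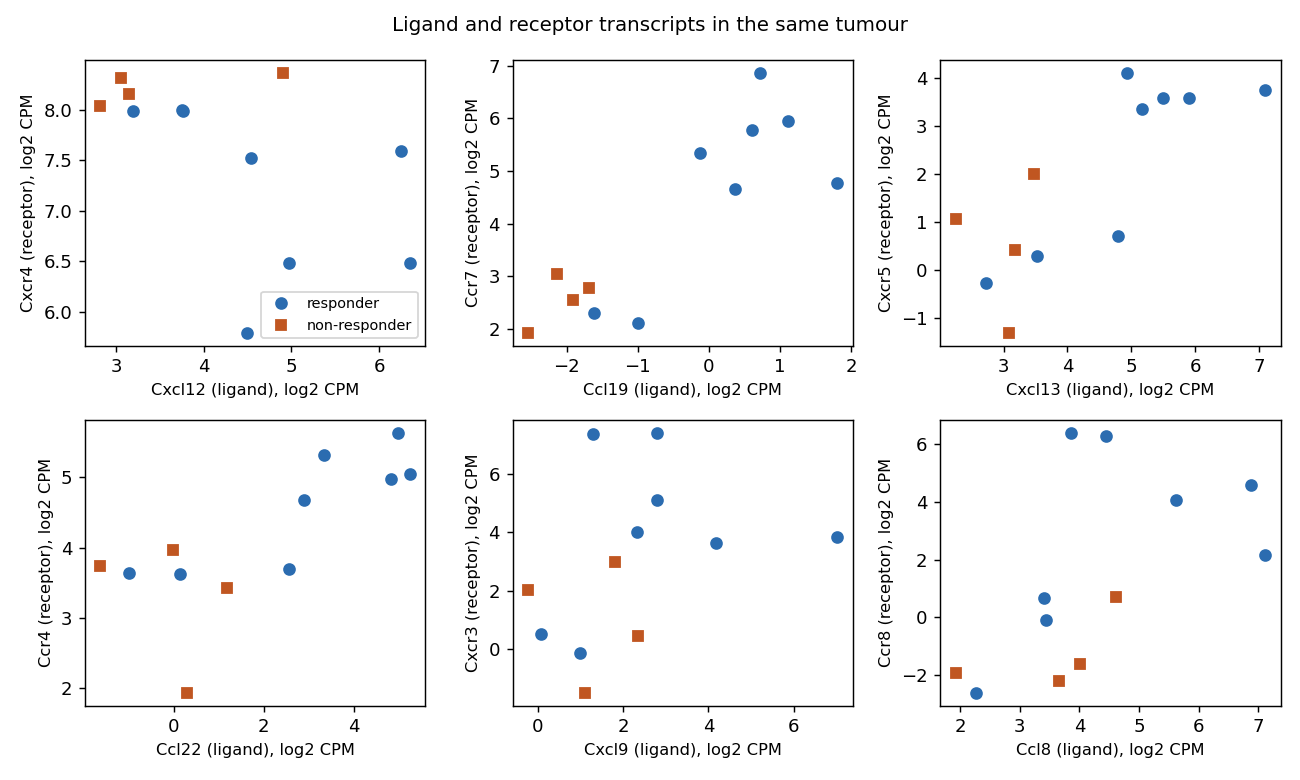
Log2 CPM of 6 ligands (horizontal axis) and a receptor of each (vertical axis); each point is 1 tumour, blue circles for the 8 responders and orange squares for the 4 non-responders, with responders 2 and 7 on the same spot in the first panel. For Ccl19 and Ccr7 the 4 non-responders and 2 responders sit at the lower left and 6 responders at the upper right, while for Cxcl12 and Cxcr4 3 non-responders sit at the upper left.

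Many of these genes are neighbours in the genome, and some neighbours had unlike differences while others were closer. On chromosome 9, between 123678439 and 124113557 (GRCm38), lie in order Ccr9 (-0.51), Xcr1 (-1.09), Ccr1 (-2.29), Ccr3 (-0.69) and Ccr2 (-4.0), with log2 differences in brackets. On chromosome 11, Ccl2 (-1.02), Ccl7 (-1.05), Ccl11 (-2.52), Ccl12 (-0.66) and Ccl8 (-1.70) lie within 81.2 kb. Only Ccl11 of these 5 had an unadjusted p under 0.05. A second group there, within 139 kb, holds Ccl5 (-2.87), Ccl9 (-0.95), Ccl6 (-1.02), Ccl3 (0.74) and Ccl4 (-0.25). On chromosome 8, Ccl22 (-3.74) and Ccl17 (-3.22) flank Cx3cl1 (-0.77) within 66.4 kb. On chromosome 5, Cxcl5 (-1.65), Cxcl1 (-1.38) and Cxcl2 (-2.21) lie within 147 kb, together with Cxcl15, which was not tested. A second group there, within 44.1 kb, holds Cxcl9 (-2.93), Cxcl10 (-1.13) and Cxcl11 (-1.57). Differences between neighbours were not tested.

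Levels can be set against each other only per length of transcript. As mean CPM per kilobase over the 12 tumours, with the median length of each gene's principal GENCODE transcripts, the order began with Cxcr4 (119), Ccl8 (69.1), Ccl6 (66.9), Ccr2 (48.5) and Cxcl13 (27.9). This order pools both groups and did not hold in each: in responders the means were 95.3, 89.8, 80.6, 70.6 and 38.3, while in non-responders they were 166, 27.6, 39.7, 4.39 and 7.19, with Ccr9 (12.5) and Ccl9 (9.31) above Ccr2 and Cxcl13. The spread over tumours differed widely between genes. The highest tumour held 5.96 times the level of the lowest for Cxcr4, 37.1 times for Ccl8, 29.8 times for Ccl6, 125 times for Ccr2 and 29.1 times for Cxcl13, so that the order among Ccl8, Ccl6 and Ccr2 is not set beyond their spread. Per tumour, Ccl8 was at 138, 118 and 49.3 CPM in responders 1, 4 and 6 and at 3.72 to 24.3 CPM in the other 9.

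Of 40 other genes of chemokine receptor signalling, all were tested and none passed in edgeR. By unadjusted p under 0.05, 8 of 40 were lower and 3 of 40 higher in non-responders, near the 16.1% and 7.73% of all genes tested, and the list's median log2 difference was -0.15. Grk5, a kinase that desensitises receptors, had a mean of 13.0 ± 5.75 CPM (SD) over 8 responders against 4.58 ± 0.457 CPM (SD) over 4 non-responders, with a log2 difference of -1.51 (SE 0.39, edgeR adjusted p = 0.117). Grk3, of the same family, differed by -1.41 (SE 0.47). Pik3cg, the lipid kinase subunit activated by G proteins, was at 80.6 ± 12.1 and 123 ± 37.2 CPM (0.61, SE 0.19). Of 26 genes of egress and adhesion, 12 were lower and 0 higher by unadjusted p under 0.05, against 16.1% and 7.73% of all genes tested, with a median log2 difference of -0.96. The lowest p of this list belonged to 3 of its 5 sphingosine 1-phosphate receptor genes, a family that includes the thymic exit receptor S1pr1: S1pr3 (-1.99, SE 0.48), S1pr4 (-2.43, SE 0.65) and S1pr1 (-2.0, SE 0.64), the latter being also on the mature T-cell list. Of the other members, S1pr5 differed by -2.04 (SE 0.92) and S1pr2 by 0.57 (SE 0.34, unadjusted p = 0.115). S1pr1 was at 38.6 ± 31.3 CPM in responders (SD, n = 8) against 9.67 ± 3.32 CPM (SD, n = 4), beside the lower mature T-cell genes given above.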

How the data were processed

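RNA-seq was analysed for 8 responder and 4 non-responder thymic lymphomas. The authors deposited raw counts per Ensembl gene, all whole numbers. Per the labels' protocols the libraries were mRNA, sequenced as 75-base paired-end reads with 4 libraries to a lane. HTSeq and DESeq are named, without versions, per the submitters' processing notes. Those notes give the build NCBIM37 while the labels' extract protocol gives mm10, so the build used in counting is not settled; the sources used here name neither the aligner nor whether strand was used. Symbols, lengths and coordinates come from GENCODE M21 (GRCm38) by identifier, with a symbol for 32919 of 37991 rows. For 16 of the 52 genes (Ackr4, Ccl19, Ccl19-ps1, Ccl2, Ccl27a, Ccl6, Ccr10, Ccr9, Cx3cr1, Cxcl10, Cxcl11, Cxcl15, Cxcl16, Cxcl17, Cxcr5 and Xcl1) another gene overlaps on the opposite strand, and reads there cannot be assigned if strand was not used. Ackr1, Ccr9 and Cx3cr1 are also overlapped by another gene on the same strand, where strand cannot separate reads. Rows for Ccl21 genes were not analysed here, and 1 receptor gene, although counted among the 52, is not reported here.

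The counts were filtered with filterByExpr, scaled with TMM and tested with edgeR 4.0.16 in R 4.3.3 (quasi-likelihood, robust, two-sided, Benjamini-Hochberg over all genes tested, threshold 0.05), with the response as the only term. SE was derived from the F statistic. Log2 CPM used a prior count of 2. The alternatives were RLE scaling, no filter, DESeq2 1.42.0, limma-voom (limma 3.58.1) and each tumour left out in turn. The fits were tested on simulated data. Per the labels each tumour is a biological sample of its own, so p-values measure the spread between tumours; no pairing is given.

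Ccr7, Ccr9 and Cxcr4 were named throughout, with tumour values for them, for up to 6 genes of lowest p per direction (only 4 had a log2 difference above 0) and for the 5 highest per length; other genes were named for their role, and from each gene list those with the lowest p. Genes and lists were chosen with earlier results of these data known, so the pattern across them is no independent support.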

Additional observations from a re-analysis of the deposited data

Results flagged for a closer look

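Within each group, a tumour was singled out where its log2 CPM lay apart from its nearest neighbour by more than Dixon's 95% critical share of the group's range. Of 103 groups examined 8 were singled out, and chance alone gives about 1 in 20. In responder 1 these were Ccl2 at 21.7 CPM (nearest responder 6.33), Cxcl10 at 14.3 CPM (nearest 4.69), Cxcl2 at 7.05 CPM (nearest 1.09) and Xcl1 at 15.3 CPM (nearest 1.09). Responder 1 also had the highest summed macrophage, dendritic-cell and cytotoxic-cell levels, 1763, 2897 and 441 CPM, and their part in these 4 values was not tested. Its dendritic-cell sum was mostly Cd74, H2-Aa and H2-Ab1.

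Among non-responders, Cxcl12 was at 30 CPM in non-responder 2 (nearest 8.76) and Cxcl11 at 1.84 CPM in non-responder 3 (nearest 0.0459). Ccr6 was low, at 0.0918 CPM, in non-responder 1 (nearest 0.552), and Ackr4 low, at 0.49 CPM, in non-responder 2 (nearest 0.726).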

How the results depend on the processing

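No paired analysis was possible because the labels give no replicate numbers that groups share. edgeR called 0 genes of all tested and 0 of the chemokine genes with RLE scaling and without a filter as well. DESeq2 called 2462 genes and 22 chemokine genes, and limma-voom with quality weights 1723 and 8; the cause was not tested. With 1 tumour left out in turn, edgeR called 0 to 5 genes of all tested (5 without responder 3, 3 without non-responder 1, 1 without non-responder 3) and 0 chemokine genes each time. Chemokine genes with an unadjusted p under 0.05 numbered 27 with all tumours, 21 to 30 with 1 tumour left out, 31 in DESeq2 and 30 in limma-voom. The count of those higher in non-responders, 1 (Cxcr4), ran from 0 to 1 with a tumour left out: it was 0 without responder 1, 3, 4 or 6 or non-responder 1, 3 or 4, and without non-responder 2 the gene was Ccl3 (1.05, unadjusted p = 0.0488) and not Cxcr4. Of the 50 tested genes 47 kept the sign of the fold change under all 16 alternatives. Ccl27a turned from 0.02 to -0.13 in limma-voom, to -0.09 and -0.06 without responders 2 and 3, and to -0.12 and -0.17 without non-responders 1 and 3 (-0.17 to 0.27 with any 1 tumour left out). Ccl4 turned from -0.25 to 0.12 without responder 1 (range -0.80 to 0.12), and Cx3cr1 from -0.24 to 0.02 without non-responder 3 (range -0.48 to 0.02). With 4 non-responders and levels under 1 CPM for several ligands, small differences in those genes were not detectable.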
